A study of Mus musculus with 3 samples.

Results

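The genes described here are 31 known direct targets of the transcription factor p53 outside the BCL2 family, read in lymphoma cells in which Trp53, the gene of p53, was engineered to be deleted. They were chosen by gene symbol, and all 31 were found among the 37646 genes listed. The cells came from 3 splenic lymphomas of pBIC mice on the C57BL/6 background, a model of the ABC form of diffuse large B cell lymphoma. Every tumour carried floxed Trp53, floxed Blimp1, a floxed stop in front of the IKK2ca allele, and Cre in the Cg1 locus, which becomes active in stimulated B cells. Cells positive for B220 and GFP were sorted from spleens of moribund mice, and their polyadenylated RNA was sequenced as single reads of 50 nt. All libraries belong to 1 group, called tumours 1, 2 and 3. The germinal centre B cells that the design text names as controls were not analysed here, so no level below is a change against B cells with p53.

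In normal cells p53 is kept scarce by the ubiquitin ligase MDM2 and accumulates after DNA damage or oncogenic stress. It then binds paired decamers in DNA near its target genes and raises their transcription. The targets stop the cell cycle, repair DNA, restrain growth signalling or start apoptosis, and loss of p53 is common in aggressive B cell lymphoma. Several of these genes are also induced by other factors, for example by ATF4 in the stress response to amino acid shortage.

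The libraries held 15022902 to 15141009 counts. Levels are given as CPM, counts scaled to a common library size with TMM factors, and between genes as TPM, which is also divided by gene length. Transcripts of Trp53 itself were present, at 23.8, 20.8 and 61.2 CPM in tumours 1, 2 and 3, highest in tumour 3. Reads from a recombined allele would be counted on the gene too, so this value does not check the deletion. All 8 pan-B markers reached 1 CPM in every tumour. Their summed level was 4109, 2288 and 2279 CPM. The 6 erythroid markers summed to 7.36, 23.0 and 142 CPM, the 6 T cell markers to 17.1, 26.6 and 39.7 CPM, the 6 neutrophil markers to 55.1, 20.1 and 3.13 CPM and the 6 macrophage markers to 7.49, 12.5 and 4.76 CPM. The 6 endothelial and stromal markers and the 4 epithelial markers stayed at or below 2.71 CPM in sum in every tumour. Fewer cells of a type and less RNA per cell cannot be told apart in such samples.

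The promoters of a few targets hold a match to 1 of the paired decamers that p53 binds. RefSeq promoter windows (GRCm38.p6) were at hand for 24 of the 31 genes, 34 windows in all, and the 250 bases before each start were searched for the canonical p53 decamer, which reads the same on both strands. A perfect decamer lay in 7 of the 34 windows (20.6%), 1 for each of 7 genes, against 7.13% of all 32851 windows. All 7 are shown. Of these genes 6 were transcribed in all tumours, as were 16 of the 24 genes with a window. The other, Ddit4l, had no count. The sequences are written 5′ to 3′ on the strand of the gene, with the decamer in capitals.
Aen (chr7:78895927-78895956, plus strand): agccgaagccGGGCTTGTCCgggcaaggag
Ccng1 (chr11:40755452-40755481, minus strand): agacctgcccGGGCAAGCCTtggcactgaa
Ei24 (chr9:36797335-36797354, minus strand): cgtgcggcccGGGCATGCCC
Polk (chr13:96519399-96519428, minus strand): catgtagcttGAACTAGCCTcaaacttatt
Rchy1 (chr5:91962627-91962656, minus strand): cactatgacaGAGCTTGTCTcctcaaggtg
Sesn1 (chr10:41887256-41887285, plus strand): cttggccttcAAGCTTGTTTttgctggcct
Ddit4l (chr3:137623572-137623601, plus strand): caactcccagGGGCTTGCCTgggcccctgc
The decamer of Ei24 ended 1 base before the start. Those of Aen, Polk, Rchy1 and Sesn1 lay before the downstream one of their annotated starts. They began 121, 231, 90 and 173 bases before that start, in this order. All 4 thus lay inside the gene as counted from its upstream start. A pair of decamers with at most 3 mismatches in all and at most 13 bases between them was found in 3 windows. These were windows of Aen, Sesn1 and Tigar, with 3, 2 and 3 mismatches. They are 8.82% of member windows, against 5.62% of all windows. A match is a run of letters and not a measured binding site, and p53 elements outside these windows were not searched.

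The targets fell into a transcribed set and a near-silent set with a gap between them. Of the 31 genes 22 reached 1 CPM in every tumour, against a background of 28.7% of all listed genes and 53.8% of protein-coding genes. The other 9 stayed under 1 CPM in every tumour, as did 40.2% of protein-coding genes. Of these, 2 had no count at all, as had 32.3% of all listed genes. No member lay between 0.586 and 1.87 CPM in any library. With a threshold of 0.5 CPM, 22 members again reached it in every tumour. Perp, Psrc1 and Ak1 exceeded 0.5 CPM in at least 1 tumour, so fewer than 9 stayed under that threshold throughout. At 10 CPM or more in every tumour there were 19 members. The median over all 31 was 16 CPM, beside 4.27 CPM over protein-coding genes. Per length the median was 12.2 TPM over the 31 and 3.33 TPM over protein-coding genes. Over the 22 targets at 1 CPM in every tumour the median was 23.7 CPM, beside 37.5 CPM over all such genes.

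**Figure D1:**
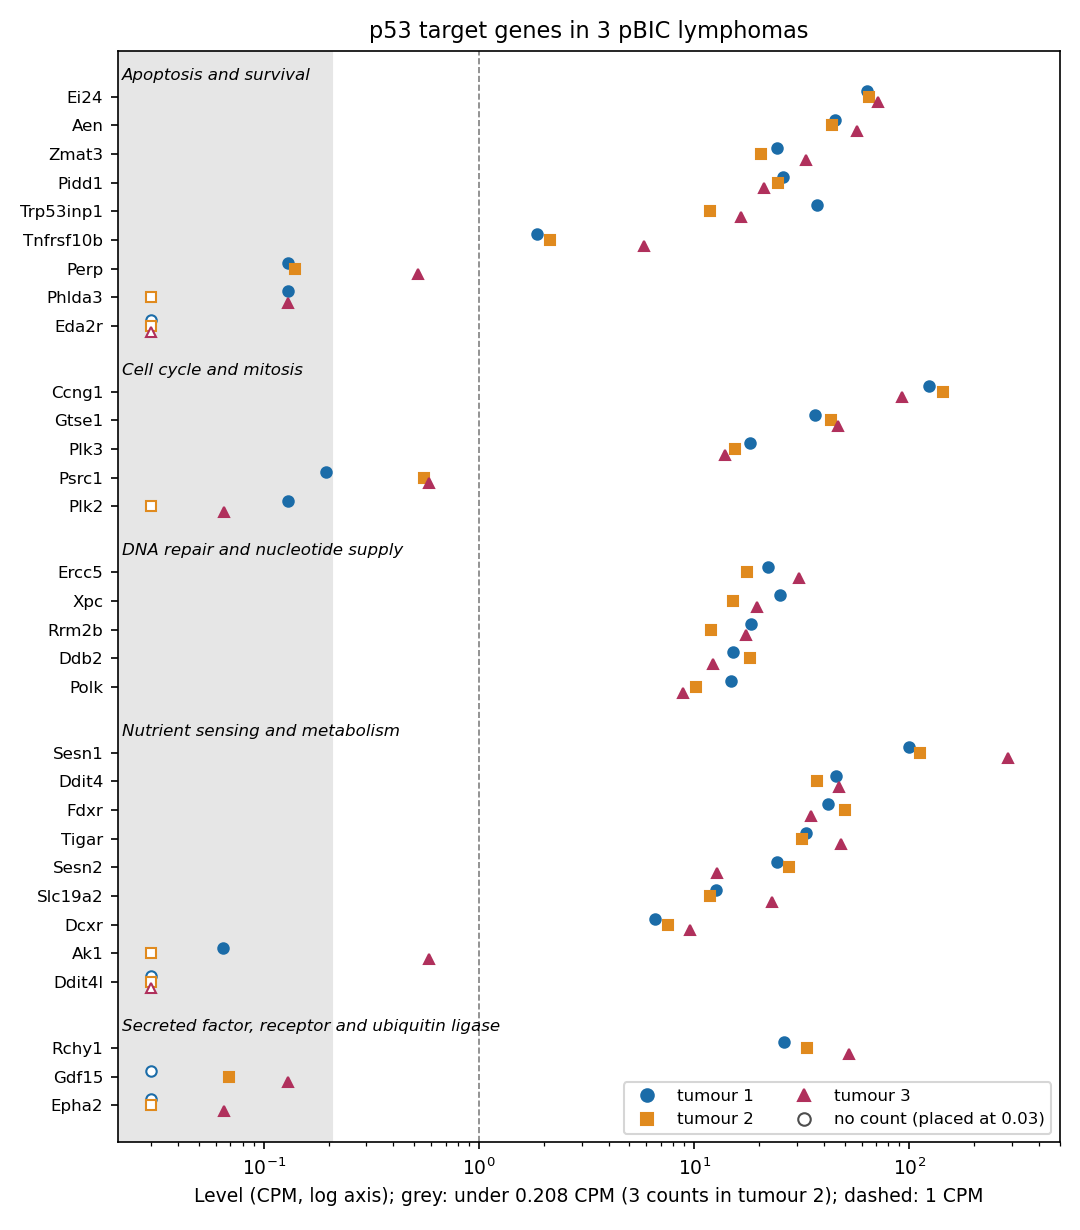
Level of each of the 31 p53 targets in CPM (log axis), 1 point per tumour, grouped by role. Open symbols at the left mark libraries with no count, the grey area lies under 0.208 CPM (3 counts in tumour 2), and 22 genes sit to the right of the dashed line at 1 CPM while 9 sit to its left.

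Among the genes of apoptosis and survival 6 of 9 were transcribed. Ei24, which encodes an endoplasmic reticulum protein needed for autophagy, had 63.9, 65.0 and 71.7 CPM in tumours 1, 2 and 3. Aen, an exonuclease that degrades DNA in apoptosis, had 45.0, 43.7 and 57.4 CPM. Both were nearly even across the tumours. Zmat3, a zinc-finger protein that binds RNA and controls splicing, had 24.3, 20.4 and 33.0 CPM. Pidd1, the scaffold of a complex that activates an initiator caspase, had 26.0, 24.4 and 21.1 CPM. Its range was narrow, and unlike Zmat3 it was lowest in tumour 3. Trp53inp1, a nuclear stress protein that also acts in autophagy (chromosome 4, 11156431 to 11174379), had 37.4, 11.9 and 16.5 CPM. Tumour 1 stood above the other two. Tnfrsf10b, the mouse receptor for the death ligand TRAIL, was low but detected, with 1.87, 2.15 and 5.86 CPM from 29, 31 and 90 counts. Tumour 3 was the high one.

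The other 3 genes of this group were near silent. Perp, a membrane protein of desmosomes, had 2, 2 and 8 counts, and its highest level was 0.521 CPM. Phlda3, which competes with the kinase AKT for membrane lipids and so restrains it, had 2, 0 and 2 counts. Eda2r, a receptor of the TNF receptor family (X chromosome, 97333840 to 97377216), had no count in any tumour. A count of 0 allows up to 3 counts, which is 0.194, 0.208 and 0.195 CPM in tumours 1, 2 and 3. For Eda2r these data do not tell absence from a level below that limit.

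Among the genes of the cell cycle, 3 of 5 were transcribed. Ccng1, which encodes cyclin G1 and takes part in the feedback on p53 through MDM2 (chromosome 11, 40748552 to 40755311), had 123, 143 and 92.8 CPM, 119.7 ± 25.4 (SD, n = 3). Gtse1, a microtubule-binding protein of dividing cells that moves p53 out of the nucleus, had 36.3, 43.1 and 46.4 CPM. Plk3, a polo-like kinase of the stress response, had 18.1, 15.5 and 13.9 CPM. Its paralogue Plk2 (chromosome 13, 110395046 to 110400844) had 2, 0 and 1 counts. Psrc1, a spindle protein, had 3, 8 and 9 counts, at most 0.586 CPM. Gtse1 and Psrc1 both act in mitosis, yet Psrc1 was near silent in these cells.

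Gtse1 can be set beside 10 general genes of the G2 and M phases, all of which reached 10 CPM in every tumour. Of these, 8 were lowest in tumour 3 and 0 were highest there, against 33% and 31.8% of all tested genes. The other 2 were lowest in tumour 1, as Gtse1 was. Gtse1 was highest in tumour 3, at 1.28 times its lowest level. Mki67, the Ki-67 proliferation antigen, had 833, 451 and 306 CPM, and Top2a, the topoisomerase of dividing cells, had 649, 629 and 269.7 CPM. Ccnb1, a mitotic cyclin, had 35.9, 51.0 and 32.2 CPM, and the mitotic kinase gene Aurka had 55.5, 73.3 and 43.9 CPM. Of the 10 genes 0 passed the edgeR test of variability described below, against 0.139% of all tested genes. That test gave 3 of the 10 an unadjusted p under 0.05, against 6.27% of all tested genes.

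All 5 genes of DNA repair and nucleotide supply were transcribed. Ercc5, the nuclease that cuts beside a lesion in nucleotide excision repair, had 22.1, 17.6 and 30.8 CPM. Xpc, which recognises distorted DNA in the same pathway, had 25.0, 15.1 and 19.5 CPM. Ddb2, which recognises damage by ultraviolet light, had 15.2, 18.1 and 12.2 CPM. These 3 genes of 1 pathway thus differed in which tumour was highest. Rrm2b, the p53-inducible subunit of ribonucleotide reductase, had 18.4, 12.0 and 17.5 CPM. Polk, a polymerase that copies past lesions, had 14.9, 10.2 and 8.86 CPM. The ratio of the highest to the lowest tumour stayed between 1.48 and 1.75 in all 5 genes. Exons of Ddb2 share 23.8% of their length with Acp2 on the opposite strand, and whether the counting used strand is not given in the sources used here.

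Among the genes of nutrient sensing and metabolism 7 of 9 were transcribed. Sesn1, a sestrin that restrains mTORC1 and oxidative stress (chromosome 10, 41809935 to 41908424), had 100, 112 and 287 CPM from 1549, 1622 and 4409 counts. Tumours 1 and 2 were close and tumour 3 stood at 2.70 times their mean. Sesn2, the sestrin that senses leucine, had 24.3, 27.7 and 12.8 CPM. Here tumours 1 and 2 were again close, but tumour 3 was the low one, at 0.491 times their mean. Ddit4, an inhibitor of mTORC1 also called REDD1, had 45.6, 37.2 and 47.3 CPM. Its paralogue Ddit4l (chromosome 3, 137621612 to 137628333) had no count in any tumour.

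The other genes of this group are enzymes and a carrier. Tigar, a phosphatase that diverts glucose to the pentose phosphate pathway, had 33.2, 31.8 and 48.3 CPM. Fdxr, which passes electrons to ferredoxin in mitochondria, had 41.8, 50.2 and 35.0 CPM. Slc19a2, a thiamine carrier, had 12.7, 11.8 and 23.0 CPM. Tigar and Slc19a2 were highest in tumour 3, where Fdxr was lowest. Dcxr, a reductase of sugars and carbonyls, had 6.59, 7.56 and 9.58 CPM. Ak1, an adenylate kinase that is abundant in red blood cells, had 1, 0 and 9 counts. Its 9 counts fell in the tumour with the highest erythroid markers, and the part of those cells in the value was not tested.

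Of the secreted factor, the receptor and the ubiquitin ligase, 1 was transcribed. Rchy1, a ubiquitin ligase that marks p53 for degradation, had 26.2, 33.3 and 52.4 CPM, highest in tumour 3. Exons of Rchy1 share 18.0% of their length with Thap6 on the opposite strand. Gdf15, a stress cytokine that cells secrete, had 0, 1 and 2 counts. Epha2, an ephrin receptor kinase of epithelial cells, had 0, 0 and 1 counts.

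Divided by gene length, the order of the targets was led by Sesn1 at 126 ± 80.1 TPM, Ccng1 at 102 ± 19.2 TPM and Ddit4 at 74.9 ± 14.7 TPM (SD, n = 3). Sesn1 led through tumour 3, where it had 218 TPM. In tumours 1 and 2 it had 82.2 and 77.4 TPM, below the 115 and 112 TPM of Ccng1. The order of these genes is therefore not settled by the mean. Gtse1, Fdxr and Ei24 followed at 45.9 ± 4.63, 45.2 ± 6.45 and 41.4 ± 4.23 TPM, a difference within the spread between tumours. Tnfrsf10b was the lowest of the transcribed targets per length, at 1.82 ± 1.24 TPM, and Rrm2b stood next above it at 5.33 ± 1.55 TPM. The near-silent targets followed, from Perp at 0.407 TPM downward.

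The members hold 3 pairs of paralogues, and in each pair the partners stood far apart. Sesn1 exceeded Sesn2 per length by 3.60, 3.54 and 19.6 times in tumours 1, 2 and 3. In log2(TPM + 1) the difference Sesn1 minus Sesn2 was 1.80, 1.78 and 4.18, with a mean of 2.59 ± 1.38 (SD, n = 3). Without tumour 3 the mean was 1.79. Plk3 had 717 counts over the 3 tumours and Plk2 had 3, a ratio of 424 per length, with a 95% Clopper-Pearson interval from 145 to 2061 that covers counting error only. Plk2 minus Plk3 was -4.24 ± 0.21 in log2(TPM + 1). Ddit4 was at least 392-fold, 297-fold and 402-fold higher per length than Ddit4l, taking 3 counts per library as the limit for Ddit4l. Ddit4 minus Ddit4l was 6.23 ± 0.30 in log2(TPM + 1). Plk2 and Ddit4l were at or near 0, so the size of these log2 differences depends on the added 1. The sign of each difference was the same in 3 of 3 tumours. An exact sign-flip test (two-sided) gave p = 0.25 for each pair before and after Benjamini-Hochberg adjustment for 3 pairs, and 3 tumours allow no smaller p.

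**Figure D2:**
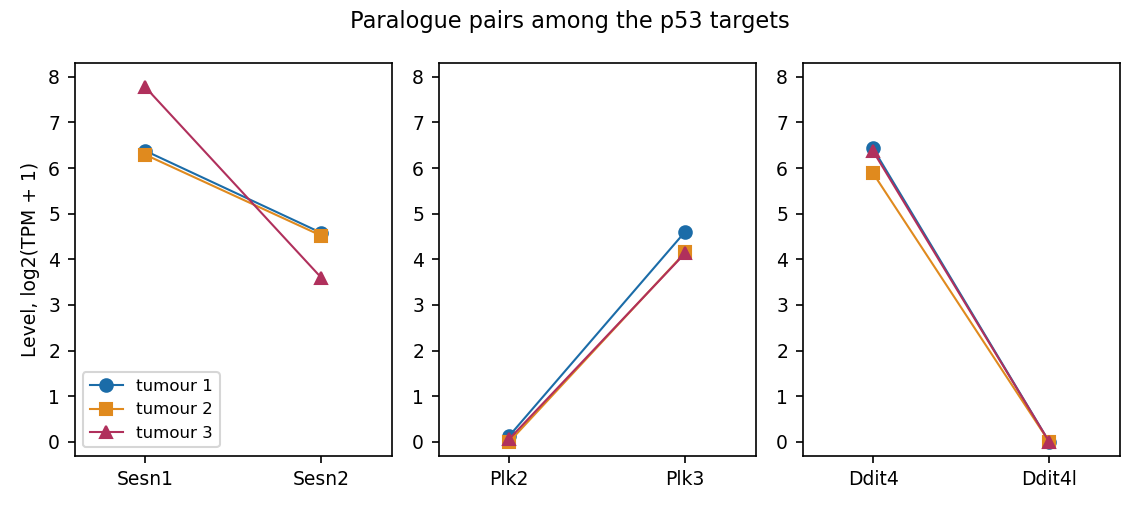
Levels of the paralogue pairs in log2(TPM + 1), with a line joining the partners within each tumour. The line of tumour 3 falls more steeply from Sesn1 to Sesn2 than the other lines (4.18 against 1.80 and 1.78), while the lines of the other pairs run nearly parallel.

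The tumours were compared with a test that asks whether a gene varied more between them than genes of similar abundance did (edgeR quasi-likelihood fit with 1 mean per gene, one-sided F test, Benjamini-Hochberg adjustment over 11478 genes, threshold 0.05). The labels do not state that the samples came from separate animals, so its p-values measure the spread between these samples. Of the 22 targets that passed the filter on low counts, 0 passed the test, and 16 of all 11478 genes did, which is 0.139%. At an unadjusted p under 0.05 there were 2 targets, against 6.27% of all genes tested. These were Sesn1 (unadjusted p = 0.0123, edgeR adjusted p = 0.534) and Trp53inp1 (unadjusted p = 0.0453, edgeR adjusted p = 0.780). limma-voom also called 0 targets, and 8 of all 11478 genes. It gave an unadjusted p under 0.05 to 1 target and to 717 of all genes. The near-silent targets did not pass the filter. With no filter beyond 1 count, 29 targets were tested and 0 passed, against 164 of 25500 genes. The unadjusted p was under 0.05 for 2 of these targets and for 1334 of the genes.

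The highest tumour exceeded the lowest by more than 2-fold for 5 of the 22 tested targets, against 28.7% of all tested genes. Trp53inp1 had a ratio of 3.16, Tnfrsf10b 3.13, Sesn1 2.87, Sesn2 2.17 and Rchy1 2.0, where the last fell to 1.99 with scaling to library totals. In 4 of these 5 the range rested on tumour 3. Without it the ratio was 1.15 for Tnfrsf10b, 1.12 for Sesn1, 1.14 for Sesn2 and 1.27 for Rchy1. The range of Trp53inp1 rested on tumour 1, without which it was 1.4. The smallest range was that of Ei24, at 1.12. The median ratio was 1.54 over the tested targets and 1.62 over the 8761 tested genes whose mean level lay within the range of these targets.

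**Figure D3:**
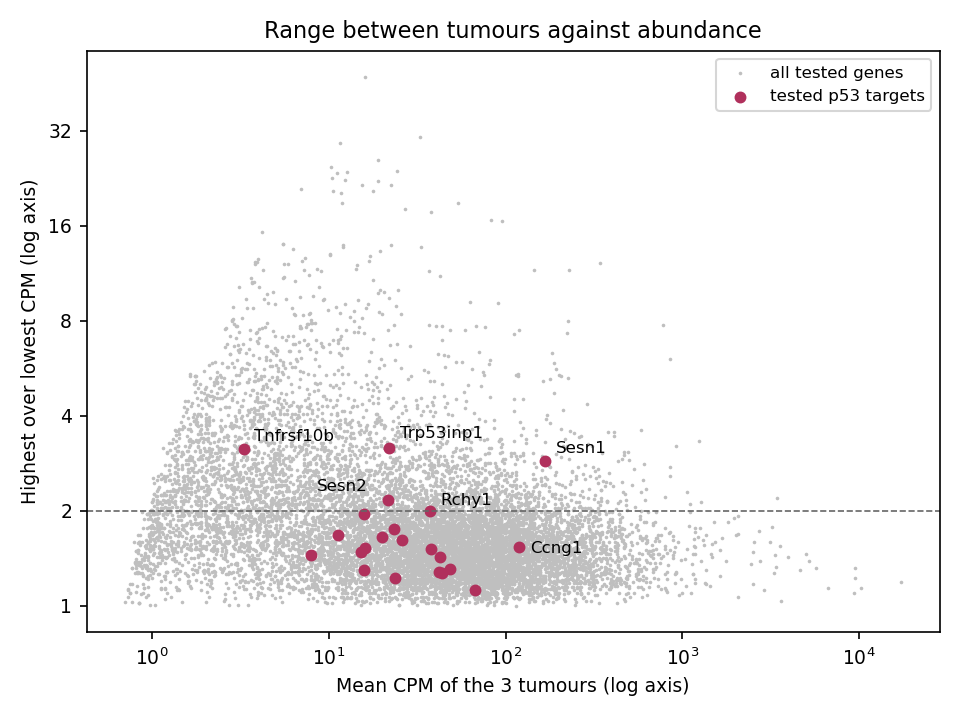
Highest over lowest CPM among the 3 tumours (log axis) against mean CPM (log axis), for all 11478 tested genes in grey and the 22 tested p53 targets in red, with the dashed line at 2-fold. The targets lie inside the cloud of all genes, and Trp53inp1, Tnfrsf10b and Sesn1 have the largest ratios among them (3.16, 3.13 and 2.87).

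Tumour 3 had the most Trp53 transcript, and most of the tested targets were highest there. Some of these peaks were small, as for Ei24, with a ratio of 1.12 between its highest and lowest tumour. A link of the targets to the Trp53 transcript was not tested. Of the 22 tested targets 12 peaked in tumour 3, against 31.8% of all tested genes. Another 6 peaked in tumour 1 and 4 in tumour 2, against 32.4% and 35.8% of all tested genes. Lowest in tumour 3 were 7 targets, against 33.0% of all tested genes. The targets did not all go the same way. Tnfrsf10b, Sesn1, Slc19a2 and Rchy1 were highest in tumour 3, and Sesn2, Ccng1, Polk and Ddb2 were lowest there. Trp53 had a ratio of 2.94 between its highest and lowest tumour (unadjusted p = 0.0216, edgeR adjusted p = 0.636). It did not pass the test either. The summed levels of the erythroid and of the T cell markers were likewise highest in tumour 3, although 3 of the 6 T cell markers peaked in tumour 2. The erythroid marker Hbb-bs, with 2.58, 8.67 and 61.5 CPM, passed the variability test (edgeR adjusted p = 0.0234). The part of erythroid cells and T cells in the values of the targets was not tested.

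**Figure D4:**
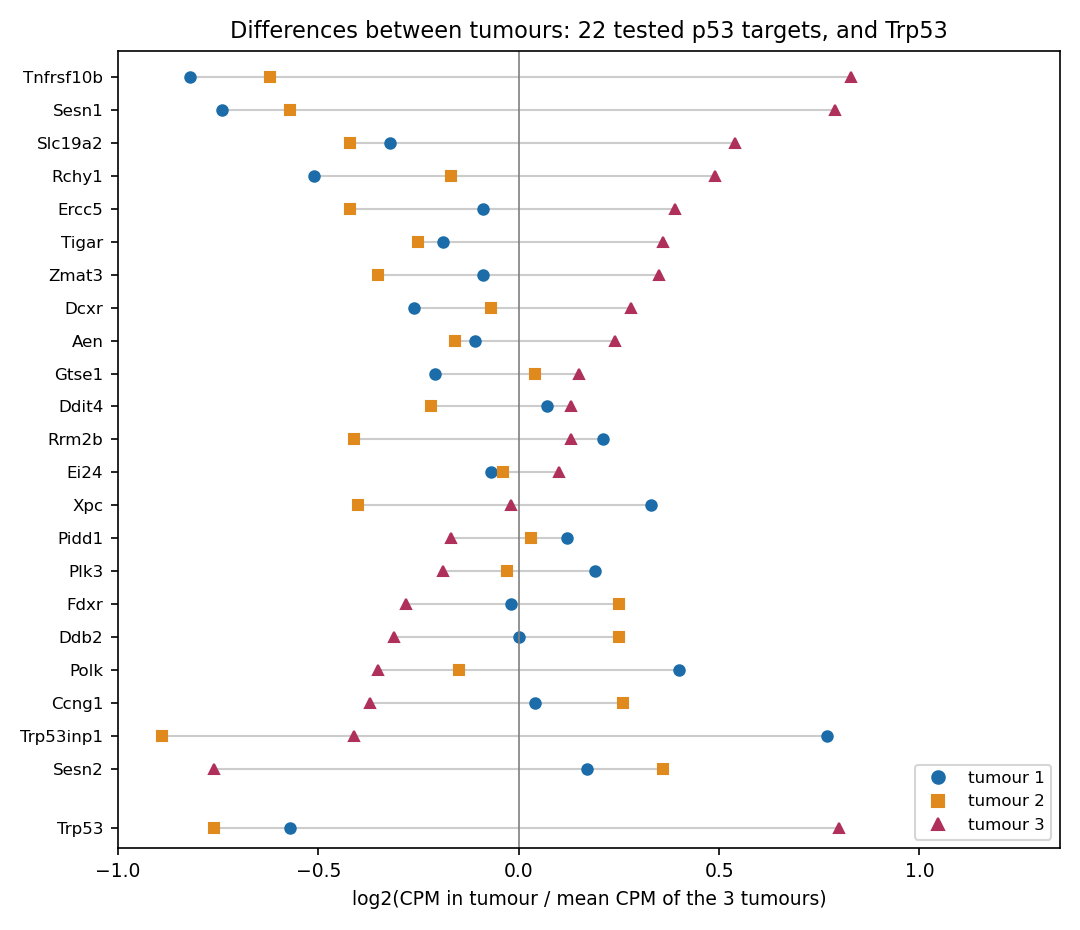
Level of each tested p53 target in each tumour as log2 of its CPM over the mean of the 3 tumours, ordered by tumour 3, with Trp53 below. Tumour 3 lies at 0.83 for Tnfrsf10b, 0.79 for Sesn1 and 0.80 for Trp53, and at -0.76 for Sesn2.

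Another 24 direct p53 targets, with members of the BCL2 family among them, were read in the same way. All 3 tumours had at least 1 CPM of 20 of them, against 53.8% of protein-coding genes, and the median over the 24 was 43.4 CPM. Of the 21 tested, 0 passed the test of variability, against 0.139% of all tested genes. That test gave 2 of the 21 an unadjusted p under 0.05, against 6.27% of all tested genes. The peak lay in tumour 3 for 10 of the 21, in tumour 1 for 7 and in tumour 2 for 4. Of all tested genes 31.8%, 32.4% and 35.8% peaked in tumours 3, 1 and 2. The most abundant by CPM were Pml, the organiser of a nuclear body, with 573, 439 and 294 CPM, and Ier5, an immediate early gene, with 239, 218 and 322 CPM. The least abundant were Spata18, a gene of mitochondrial quality control with no count, and Steap3, a metal reductase with 7, 12 and 3 counts. A pair of the best known p53 targets, named after their values were seen, differed widely. Mdm2, whose product degrades p53, had 67.7, 75.0 and 76.6 CPM, while Cdkn1a, which encodes the cell cycle inhibitor p21, had 0.710, 3.67 and 0.912 CPM from 11, 53 and 14 counts.

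Sesn2, Ddit4 and Gdf15 are also induced in the integrated stress response, the programme driven by ATF4. Of 10 genes of that response 7 reached 1 CPM in every tumour, against 53.8% of protein-coding genes. Of the 7 tested, 0 passed the test of variability, against 0.139% of all tested genes. That test gave 3 of them an unadjusted p under 0.05, against 6.27% of all tested genes. Psat1, an enzyme of serine synthesis, had 267, 541 and 232 CPM, and Atf4 had 261, 352 and 316 CPM. At the low end, Slc7a11, a cystine carrier, had 0, 16 and 1 counts, and Vldlr, a lipoprotein receptor, had 0, 0 and 2 counts. Of the 7 tested genes 3 were lowest in tumour 3, against 33% of all tested genes, 3 in tumour 2 and 1 in tumour 1. Sesn2 was also lowest in tumour 3. Tumour 2 was highest for 4 of the 7, against 35.8% of all tested genes, and for Sesn2. Tumour 1 was highest for 2 and tumour 3 for 1. The ratio of highest to lowest exceeded 2 for 6 of the 7, against 28.7% of all tested genes. A link of Sesn2 to this response was not tested.

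The CG dinucleotides of the promoters are given as a description, with no test. The median per window of 250 bases was 16 over 21 windows of transcribed targets, 6 over 13 windows of near-silent targets and 6 over all 32851 windows. Some genes, such as Ak1, gave several windows. In the window richest in CG of each gene the median was 17.5 over 16 transcribed targets and 9.5 over 8 near-silent targets. The count ran from 5 to 27 in the first set and from 4 to 28 in the other, so the sets overlapped. Plk2, with 3 counts in all, had 28 CG dinucleotides, more than any other member window, and Dcxr, which was transcribed in every tumour, had 5.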

How the data were processed

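RNA of 3 sorted lymphomas was measured, 1 library per file. The authors deposited a raw count of reads for each gene. FastQC, STAR 2.5.2b, featureCounts 1.6.0 and mm10 are named, without role or settings, per the submitters' processing notes. The annotation release, the use of strand and the handling of reads that map to several genes were not given in the sources used here. Libraries were numbered in accession order, which pairs nothing.

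CPM was computed in edgeR 4.0.16 under R 4.3.3, and the TMM factors were 1.023, 0.9601 and 1.018. TPM used union exon lengths of GENCODE M21 (GRCm38), matched for 37536 of 37646 genes. Coordinates are 1-based. With 1 group there is no contrast. For 11478 genes that passed filterByExpr, edgeR fitted 1 mean per gene. The residual deviance per degree of freedom, over the robust prior variance, was compared with the F distribution (2 and 15.8 degrees of freedom). The procedure was tested on simulated data. Alternatives used DESeq2 1.42.0 size factors, library totals, other filters, a prior that is not robust, limma-voom (limma 3.58.1), other pseudocounts and lengths, and each tumour left out.

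The members and gene lists were chosen with earlier results of these data known. All members are named. Of each other list except the cell type markers, the 2 highest and 2 lowest genes by mean CPM are named, with exceptions stated. The markers are given as sums, and Hbb-bs is named because it passed the variability test. Intervals and limits cover counting error only, and the libraries carry no molecular identifiers.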

Additional observations from a re-analysis of the deposited data

How the results depend on the processing

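No target passed the variability test under any of the 9 alternatives run, and 22 targets stayed at 1 CPM in every tumour under each scaling and with each tumour left out. With the reported scaling and all tumours, 19 were at 10 CPM. The number of genes called over the whole table was less stable. It was 16 as reported, 0 with library totals, 0 with a mean count of at least 10, 0 with a prior that is not robust, 8 with limma-voom and 164 with no filter beyond 1 count. It ranged from 0 to 11 with each tumour left out. The cause was not tested. The unadjusted p of Sesn1 was 0.762 without tumour 3, and that of Trp53inp1 was 0.538 without tumour 1. The median of the members ranged from 15.2 to 17.9 CPM with each tumour left out. Plk2 minus Plk3 was -7.06 and -2.23 in log2 TPM with pseudocounts of 0.1 and 5, -3.90 with the longest transcript and -3.98 without division by length. Ddit4 minus Ddit4l was 9.53, 3.98, 5.88 and 5.46 under the same settings. Both pairs hold a partner at or near 0, so the pseudocount sets their size and no setting turned their sign. TPM carries no TMM factor, so library totals gave no separate value for the pairs. No paired comparison between groups was possible because the labels give 1 group. At this depth a gene with no count could have up to 0.208 CPM.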
